A study of Mus musculus with 6 samples.

Results

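Translation initiation factors are the proteins that bring the initiator tRNA, the small ribosomal subunit and the start codon of an mRNA together. The genes described here are those whose symbol begins with Eif and a digit, taken from probe sets that the platform annotation ties to a single gene symbol, with the Y-linked Eif2s3y left out. They numbered 46 of the 18195 genes measured, and the brightest probe set by mean over the 6 arrays stood for each gene. The members hold a total of 131 probe sets, and 36 members have more than 1. Eif1, Eif2s1, Eif3g, Eif4g1 and Eif4e1b were not analysed here, and Eif3j1, Eif3j2 and Eif4ebp3 were left out because their probe sets list more than 1 gene.

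The study compared LSK cells of WT mice with LSK cells of Tet1 KO mice, with 3 samples in each group and 1 Affymetrix array per sample. LSK cells are lineage-negative, Sca-1-positive, Kit-positive marrow cells, the fraction that holds haematopoietic stem cells and the earliest progenitors. They were sorted from bone marrow of 6-month-old mice of the strain that the labels spell CD57BL/6, and no treatment is named for either group. Tet1 encodes an enzyme that oxidises 5-methylcytosine in DNA, and the labels do not say which part of the gene was deleted, whether the deletion was restricted to some cells, or whether each sample came from its own mouse. P-values therefore measure the spread between these samples, which may be technical in part. Replicate 3 of each group differed from the other replicates in Xist and Kdm5d, as given below.

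Initiation runs through a fixed sequence of factor complexes. The heterotrimer eIF2, charged with GTP, carries the initiator tRNA to the small subunit, where eIF1, eIF1A, eIF3 and eIF5 hold it ready. The eIF4 group recognises the cap and unwinds the leader of the mRNA, eIF2B recharges eIF2, and kinases that phosphorylate eIF2 or proteins that bind eIF4E slow the whole process. Haematopoietic stem cells are known for a low rate of protein synthesis.

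Values are log2 intensities as deposited, so a difference of 1 is a doubling of signal, and differences are Tet1 KO minus WT. The medians of the 6 arrays spanned 0.0694, and with 3 arrays per group that number limits the precision. Tet1 itself read 6.89, 6.80 and 6.75 in WT and 6.26, 5.63 and 5.51 in Tet1 KO. The highest Tet1 KO reading was thus below the lowest WT reading. Of 10 LSK markers listed, 8 were measured, 5 lower and 3 higher in Tet1 KO. Their differences ran from -0.50 (SE 0.23) for Hlf to 0.78 (SE 0.54) for Slamf1. Flt3 spread from 9.48 to 11.55 over the Tet1 KO arrays. The summed linear signal of the 8 ranged from 6829 to 8105 over the WT arrays and from 5714 to 8266 over the Tet1 KO arrays. All 8 read above the level of the bacterial control probe sets (4.39), with Kit at 9.94 in WT and 9.84 in Tet1 KO. The Sca-1 gene Ly6a was not analysed here. Markers of other cell types were partly above that level in both groups, with 2 of 3 measured genes for macrophages, 1 of 3 for T cells, 2 of 3 for B cells, 1 of 3 for mast cells, 2 of 3 for erythroid cells and 3 of 3 for megakaryocytes. Below it lay the macrophage gene Adgre1, at 3.11 in both groups, and the T cell gene Cd3e, at 3.89 and 3.91. Above it lay Csf1r, at 6.55 in WT and 7.01 in Tet1 KO, Cd68, at 6.33 and 5.94, Cd4, at 5.44 and 5.55, and the platelet gene Pf4, at 7.63 and 8.24. The summed linear signal of the macrophage list ranged from 165 to 211 over the WT arrays and from 123.1 to 495 over the Tet1 KO arrays. It ranged from 68.8 to 73.2 and from 72.3 to 84.2 for T cells, from 88.5 to 118 and from 94.4 to 138 for B cells, and from 53.3 to 171 and from 71.6 to 204 for mast cells. For erythroid cells it ranged from 161 to 189 and from 91.8 to 255, and for megakaryocytes from 442 to 609 and from 480 to 765, so the groups overlapped for each of these lists. The granulocyte precursor gene Mpo read 11.45 in WT and 11.72 in Tet1 KO. All 5 granulocyte markers read above the bacterial control level, with 3 higher and 2 lower in Tet1 KO. The lower ones were Prtn3 at -0.23 (SE 0.48) and Ngp at -0.16 (SE 0.41). The summed linear signal of the 5 ranged from 3332 to 4977 over the WT arrays and from 3489 to 5850 over the Tet1 KO arrays. The part of these cells in the results was not tested. A difference in bulk RNA does not separate a change per cell from a change in the mix of cells. Xist was low on replicate 3 of each group, at 4.58 in WT and 3.82 in Tet1 KO, against 11.78 to 12.17 on the other arrays, and the Y-linked gene Kdm5d was high on the same arrays, at 8.30 and 9.16.

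Most Eif genes read slightly lower in Tet1 KO, by about as much as other genes of the same signal level, and no member passed correction for multiple testing. Of the 46 members, 35 were lower and 11 higher, which is 76.1% lower against 43.5% of all genes. The median difference was -0.13, against 0.05 over all genes. With limma and Benjamini-Hochberg adjustment over all 18195 genes, 0 members had an adjusted p under 0.05, as did 0% of all genes, and the lowest adjusted p of a member was 0.642. At an unadjusted p under 0.05 in limma, 2 members were lower, Eif1b and Eif4ebp2, against 3.96% of all genes, and 0 were higher, against 3.25%. As a share of the members these 2 are 4.35%, close to the background.

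The excess of lower values went with signal level. All members but Eif4a3 read above 4.39 in both groups, which held for 69.3% of all genes, and of all genes above the median level 64.2% read lower in Tet1 KO. The middle range of member levels, from the lower to the upper quartile, ran from 8.06 to 11.00. Among the 3414 other genes in that range 67.4% were lower, with a median difference of -0.12. For each member the 200 non-member genes nearest in mean level served as a level-matched comparison, as a description with no test. Of the 46 members, 24 lay below the median of their own 200 genes. The median of the members' differences after subtraction of that value was -0.03. A total of 11 members lay below the lower quartile of their level-matched genes and 8 above the upper quartile, and the remaining 27 lay between. The share of members lower was 65.2% with quantile normalization, against 43.8% of all genes, and 54.3% with cyclic loess, against 45.8%.

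**Figure D1:**
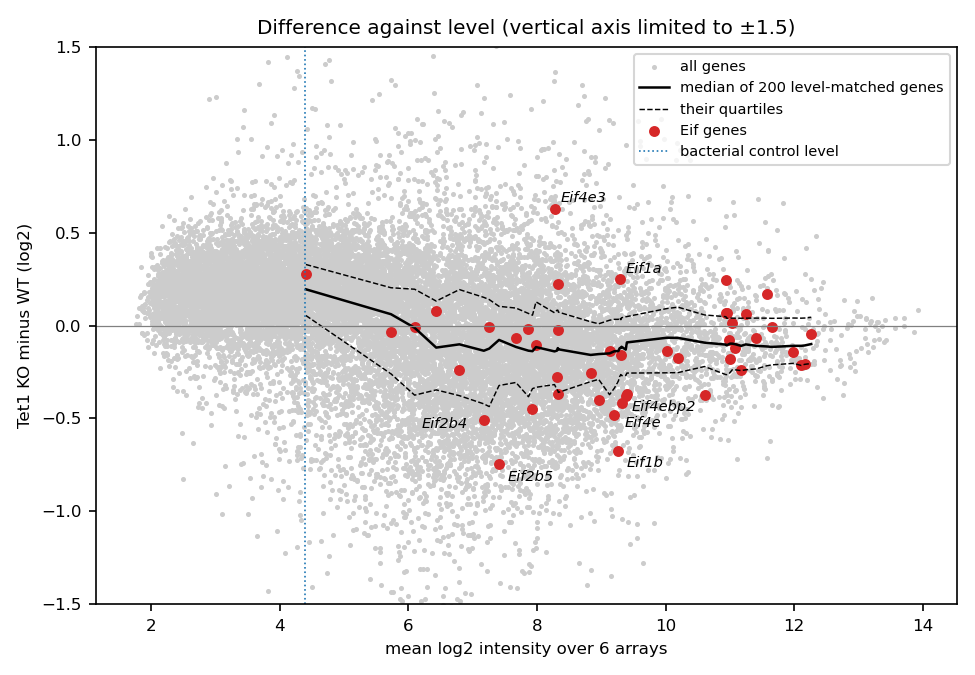
Difference between Tet1 KO and WT (log2) against mean log2 intensity for all genes (grey) and the 46 Eif genes (red), with the median (solid) and quartiles (dashed) of the 200 genes nearest in level to each member. The line lies under 0 over most of the range where the members sit, and Eif1b and Eif2b5 lie under the lower quartile while Eif4e3 and Eif1a lie over the upper.

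On single arrays the median member stood at -0.11, -0.19 and -0.10 relative to the WT mean on Tet1 KO replicates 1, 2 and 3. On the WT arrays it stood between -0.02 and 0.01. The other genes of the same middle range gave -0.08, -0.23 and -0.07 on the Tet1 KO arrays, so the order of the arrays was the same for both. Tet1 KO replicate 2 was the farthest of the 3 from the WT mean for 26 members, or 56.5%, against 59.2% of all genes, and its brightest bacterial control read 4.87, where no other array exceeded 4.37. Without that array 30 members were lower and the median difference was -0.08. The Tet1 KO arrays scattered more than the WT arrays for 37 of the 46 members, as for 72.9% of all genes, with a median SD of 0.30 against 0.11.

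**Figure D2:**
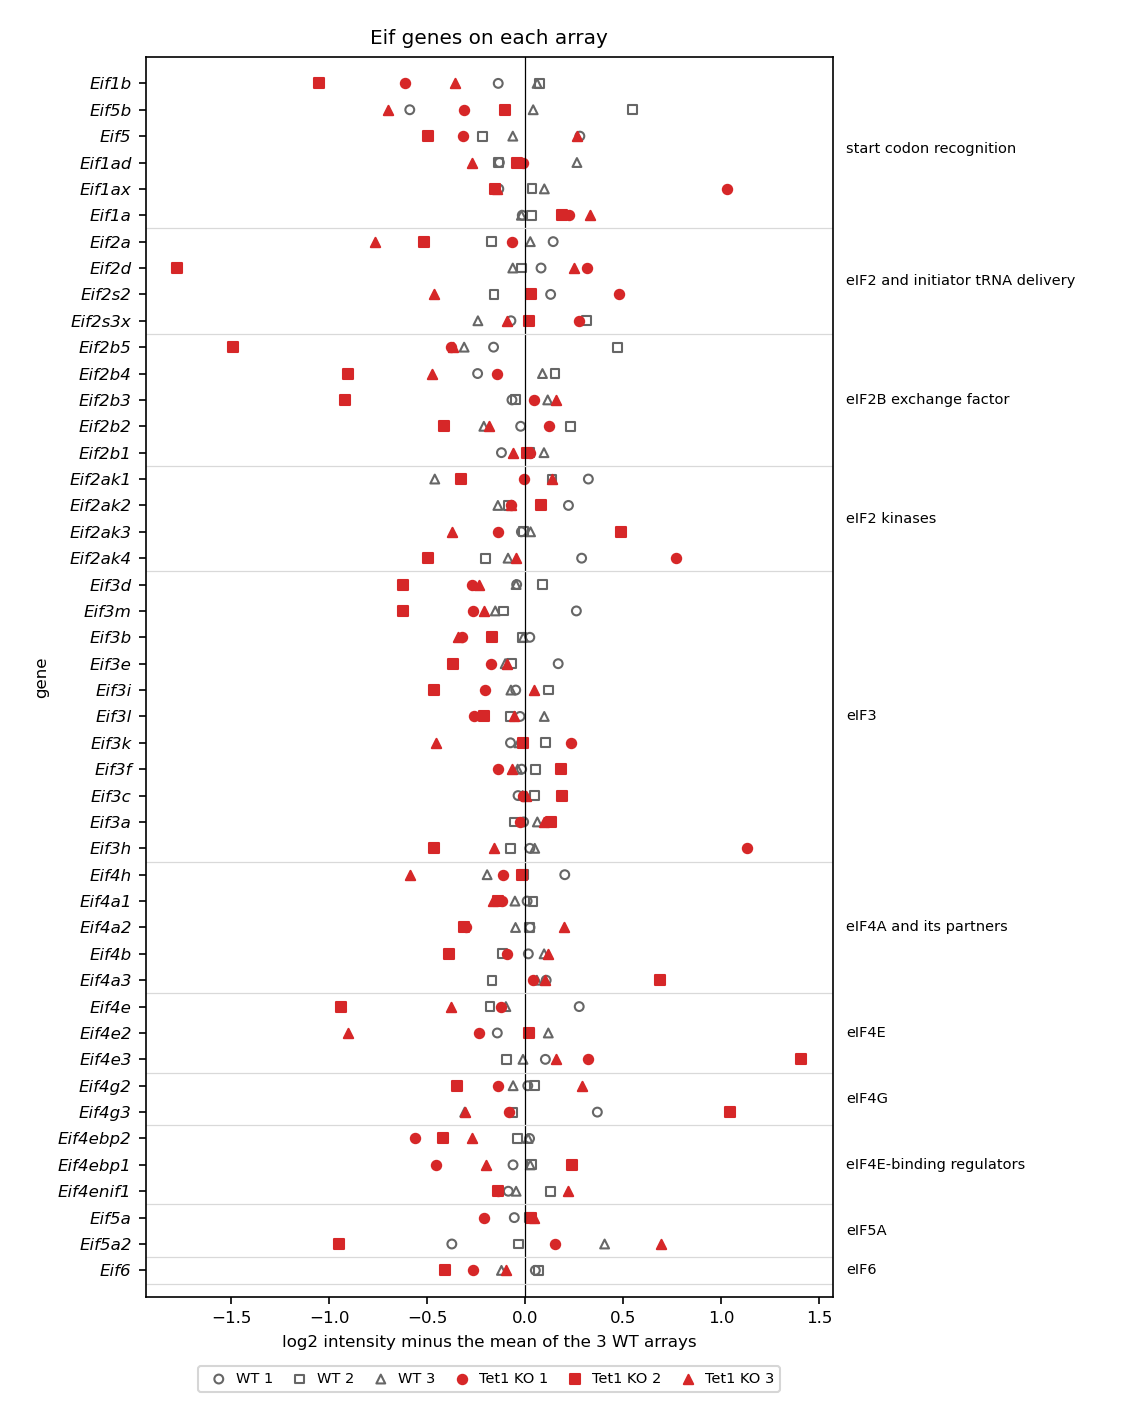
Log2 intensity of each Eif gene on each array, less the mean of the 3 WT arrays, with genes grouped by role. Open grey symbols are WT arrays and red symbols Tet1 KO arrays, with 1 shape per replicate number. The red squares of Tet1 KO replicate 2 hold the lowest value for Eif2d, Eif2b5 and Eif1b and the highest for Eif4e3 and Eif4g3.

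The groups did not overlap for 9 members. Of these, 7 lay lower in Tet1 KO on every array (15.2%, against 6.89% of all genes and 12.4% of the other genes in the middle range of level), and 2 lay higher (4.35%, against 10.3% of all genes). The 7 were Eif1b, Eif4ebp2, Eif3d, Eif2b5, Eif3b, Eif3m and Eif4a1, and the 2 were Eif4e3 and Eif1a. They belong to 6 different steps of initiation and are given below by role. An exact permutation test of 3 arrays against 3 cannot go below p = 0.1 for any of them.

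**Figure D3:**
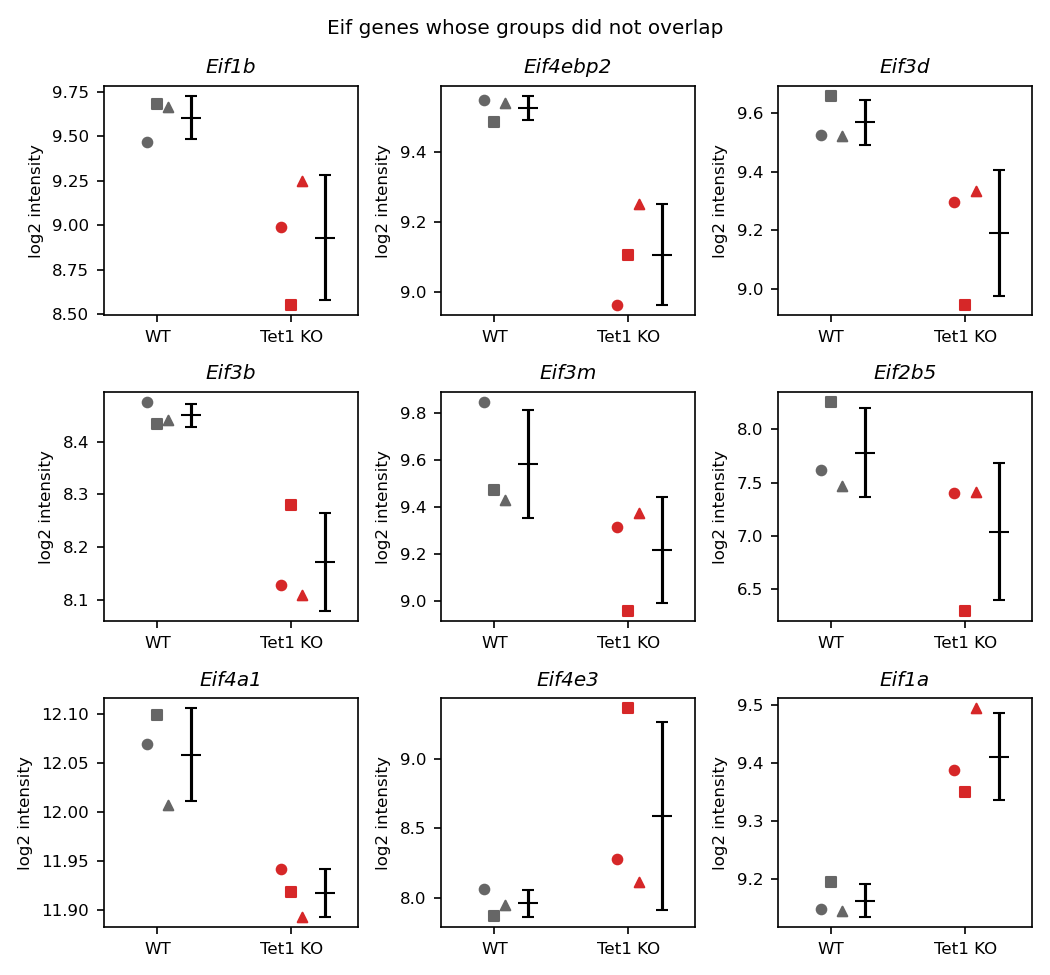
Log2 intensity on each array for the 9 Eif genes whose WT (grey) and Tet1 KO (red) values did not overlap, with mean and SD of 3 arrays beside the points and a separate vertical scale per gene. The nearest arrays of the groups lie farthest apart for Eif4ebp2, at 9.48 in WT and 9.25 in Tet1 KO, while the Eif4a1 groups differ by 0.14 in their means.

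The promoter windows of the 3 members with the smallest p-values are shown because they are the members that stand farthest from WT relative to their spread. Each window is the 120 bases before the RefSeq start (GRCm38.p6), at chr9:120492486-120492605 on the plus strand for Eif1b, chr10:61452670-61452789 on the minus strand for Eif4ebp2 and chr15:77970825-77970944 on the minus strand for Eif3d. Capitals mark an E-box (CACGTG), a GC box (GGGCGG) or an ETS core (CCGGAA), each searched on both strands.
Eif1b: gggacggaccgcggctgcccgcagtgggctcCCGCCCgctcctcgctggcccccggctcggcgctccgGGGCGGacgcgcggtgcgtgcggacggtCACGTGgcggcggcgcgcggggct
Eif4ebp2: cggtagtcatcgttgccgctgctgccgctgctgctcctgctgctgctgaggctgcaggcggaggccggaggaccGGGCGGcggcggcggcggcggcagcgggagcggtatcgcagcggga
Eif3d: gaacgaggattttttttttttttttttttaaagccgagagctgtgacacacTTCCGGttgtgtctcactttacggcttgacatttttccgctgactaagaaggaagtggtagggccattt

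These stretches hold 24, 17 and 5 CpG dinucleotides, the site that DNA methylation and Tet enzymes act on. A RefSeq promoter window of 300 bases, 250 before and 50 after the first listed start, was found for 37 of the 46 members. The median member window held 24 CpG, against 17 over the 14453 measured genes with a window. The E-box, the site of Myc and Max and of other basic helix-loop-helix factors, was in 18.9% of member windows against 9.02% of those of measured genes and 7.24% of all 27025 windows. The GC box was in 73.0%, against 54.0% and 35.9%, and the ETS core in 51.4%, against 22.0% and 15.2%. The comparison windows were not matched for signal level or CpG content. The median level was 9.30 for the members and 5.92 for all measured genes, so these shares are not shown to be particular to Eif genes. Among the members that read lower in Tet1 KO, 6 of 29 windows held the E-box, and among those that read higher 1 of 8. The letters are a description of the windows, and no binding or methylation was measured here.

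Start codon recognition had 6 measured members, of which 4 were lower and 2 higher in Tet1 KO. Eif1b, a close paralogue of eIF1, the factor that keeps the ribosome scanning until the start codon is met, had the smallest p of all members. It read 9.47, 9.68 and 9.67 in WT and 8.99, 8.55 and 9.25 in Tet1 KO. The groups lay apart, and Tet1 KO replicate 2 was the lowest. The difference was -0.67 (SE 0.21), or 1.60-fold lower, with an unadjusted limma p of 0.0149 and an adjusted p of 0.642, while its level-matched genes had a median of -0.14. The difference was -0.49 without Tet1 KO replicate 2. Eif1b has a single probe set, so no second reading of it exists here.

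Eif1a, which encodes a form of eIF1A, the partner of eIF1 in scanning, lay on the other side. It read 9.15, 9.19 and 9.14 in WT and 9.39, 9.35 and 9.49 in Tet1 KO. All 3 Tet1 KO arrays were higher than all WT arrays, and both groups were tight. The difference was 0.25 (SE 0.14) with an unadjusted limma p of 0.109 and an adjusted p of 0.642. Its other probe set gave 0.14. With cyclic loess the difference was 0.38, at an unadjusted limma p of 0.0196, and with quantile normalization 0.33, at 0.0459. Eif1ax, the X-linked paralogue, had the same mean difference of 0.25 (SE 0.33) from 1 array. It read 11.86 on Tet1 KO replicate 1, against 10.67 and 10.68 on replicates 2 and 3 and 10.69 to 10.92 in WT. Without that array the difference was -0.15, and the other Eif1ax probe sets gave -0.25 and -0.06.

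The other members of this step had overlapping groups. Eif5, which makes eIF2 hydrolyse its GTP at the start codon, read 11.37, 10.88 and 11.03 in WT and 10.78, 10.60 and 11.36 in Tet1 KO. Its difference of -0.18 (SE 0.25) was smaller than the spread within Tet1 KO. It was -0.03 without Tet1 KO replicate 2, -0.04 without WT replicate 1, -0.12 without Tet1 KO replicate 1, -0.29 without WT replicate 2 and -0.41 without Tet1 KO replicate 3. Of its other 4 probe sets, 3 were lower, by -0.41, -0.31 and -0.45, and 1 gave 0.09. Eif5b, which joins the large ribosomal subunit, gave -0.37 (SE 0.31), with the widest WT spread of any member at an SD of 0.57. Its other probe sets gave 0.09 and 0.05. Eif1ad gave -0.11 (SE 0.18).

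The eIF2 heterotrimer and the proteins that deliver tRNA beside it split evenly, with 2 of 4 measured members lower and 2 higher. Eif2s2, the beta subunit, gave 0.01 (SE 0.25), and its probe sets ran from -0.18 to 0.35. Eif2s3x, the X-linked gene of the gamma subunit, read 10.83, 11.22 and 10.66 in WT and 11.18, 10.92 and 10.81 in Tet1 KO. The lowest value in each group was that of replicate 3, the array with low Xist and high Kdm5d. The difference was 0.07 (SE 0.20), and the other probe sets gave -0.32 and 0.04. Eif2s1, the alpha subunit that the kinases phosphorylate, was not analysed here.

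Eif2a and Eif2d encode proteins outside the trimer that can also bring initiator tRNA to the ribosome. Eif2a read 8.30, 7.98 and 8.18 in WT and 8.09, 7.64 and 7.39 in Tet1 KO. Replicate 1 of Tet1 KO lay inside the WT range and the other arrays below it. The difference was -0.45 (SE 0.22) with an unadjusted limma p of 0.0764 and an adjusted p of 0.642, and the other probe sets gave -0.20 and -0.04. Leaving out 1 array gave -0.64 (Tet1 KO replicate 1) to -0.29 (Tet1 KO replicate 3). Eif2d had the lowest single reading relative to WT. It was 7.39 on Tet1 KO replicate 2, against 9.48 and 9.41 on replicates 1 and 3 and 9.10 to 9.24 in WT, so that the difference of -0.40 (SE 0.54) rested on that array.

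All 5 subunits of eIF2B, the exchange factor that recharges eIF2 with GTP, read lower in Tet1 KO at the probe set used, and 4 of the 5 lay below the median of their level-matched genes. The median difference was -0.24 and 0 of the 5 passed at an unadjusted p under 0.05. Eif2b5 encodes epsilon, the catalytic subunit. It read 7.62, 8.25 and 7.47 in WT and 7.40, 6.29 and 7.41 in Tet1 KO. The groups did not overlap, but the gap between the lowest WT and the highest Tet1 KO array was small beside the distance of Tet1 KO replicate 2 from the rest. The difference of -0.75 (SE 0.36), or 1.68-fold, had an unadjusted limma p of 0.0795 and an adjusted p of 0.642. It was -0.37 without Tet1 KO replicate 2. A second probe set gave -1.09 but was not above 4.39 in both groups.

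Eif2b4, the delta subunit of the regulatory part, read 7.19, 7.58 and 7.52 in WT and 7.29, 6.52 and 6.95 in Tet1 KO. Tet1 KO replicate 1 lay inside the WT range. The difference was -0.51 (SE 0.23), with an unadjusted limma p of 0.0669, and -0.31 without Tet1 KO replicate 2. Eif2b3, the gamma subunit, gave -0.24 (SE 0.30), from a reading of 5.99 on Tet1 KO replicate 2. Its other Tet1 KO readings, 6.96 and 7.07, lay above the WT mean of 6.91. Eif2b2, the beta subunit, gave -0.16 (SE 0.20), and its other probe sets -0.31 and -0.26. It read 8.97 on Tet1 KO replicate 2, against 9.51 and 9.20 on replicates 1 and 3 and 9.17 to 9.62 in WT. Eif2b1, the alpha subunit, gave -0.01 (SE 0.14), from 7.26 ± 0.11 to 7.25 ± 0.05 (SD, n = 3 each). For Eif2b2, Eif2b3, Eif2b4 and Eif2b5 the lowest reading was Tet1 KO replicate 2.

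At the probe sets used, the 4 kinases that phosphorylate eIF2 showed small differences, between -0.06 and 0.08, and each had overlapping groups. Eif2ak1, the haem-regulated kinase known from red cell precursors, read 8.03, 7.84 and 7.25 in WT and 7.70, 7.38 and 7.84 in Tet1 KO. Eif2ak2, the kinase PKR that senses double-stranded RNA, read 8.56, 8.25 and 8.20 in WT and 8.26, 8.42 and 8.26 in Tet1 KO. Eif2ak3, the kinase PERK of the endoplasmic reticulum, read 6.08, 6.09 and 6.13 in WT. Its Tet1 KO arrays scattered around that level, at 5.97, 6.59 and 5.73. Eif2ak4, the kinase GCN2 that senses uncharged tRNA, read 6.68, 6.19 and 6.31 in WT and 7.17, 5.90 and 6.35 in Tet1 KO. The differences were -0.06 (SE 0.25), -0.02 (SE 0.16), -0.01 (SE 0.24) and 0.08 (SE 0.33), so the standard errors are wider than the values. The sign changed for each of the 4 when single arrays were left out. Of the 4, 0 lay below the median of their level-matched genes. Other probe sets gave -0.42, 0.04, 0.01 and 0.05 for Eif2ak1 and -0.35 and -0.46 for Eif2ak2. They gave -0.23 and 0.40 for Eif2ak3 and 0.38 for Eif2ak4. The values 0.05, 0.40 and 0.38 came from probe sets not above 4.39 in both groups. The Eif2ak1 probe set at -0.42 had a mean level of 7.66, against 7.67 for the one used.

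The scaffold eIF3, the largest of the factors, had 11 measured subunits, of which 8 were lower and 3 higher, with 0 at an unadjusted p under 0.05. The median difference was -0.18, and 6 of the 11 lay below the median of their level-matched genes. Eif3d, the subunit with a cap-binding activity of its own, read 9.53, 9.66 and 9.52 in WT and 9.30, 8.95 and 9.33 in Tet1 KO. The groups lay apart. The difference was -0.38 (SE 0.16) with an unadjusted limma p of 0.0568 and an adjusted p of 0.642, and -0.25 without Tet1 KO replicate 2. A dimmer Eif3d probe set went the other way, at 0.44. Eif3b, of the core of the complex, read 8.47, 8.43 and 8.44 in WT and 8.13, 8.28 and 8.11 in Tet1 KO. All Tet1 KO arrays were below the narrow WT range. The difference was -0.28 (SE 0.14), with an unadjusted limma p of 0.0836 and an adjusted p of 0.642, and it was -0.33 without Tet1 KO replicate 2. Eif3m read 9.84, 9.47 and 9.43 in WT and 9.31, 8.96 and 9.37 in Tet1 KO. The closest arrays of the groups lay near each other, and the difference was -0.37 (SE 0.19), with -0.08 at its other probe set. It was -0.24 without WT replicate 1 and also without Tet1 KO replicate 2.

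The remaining eIF3 subunits overlapped between the groups. Eif3e, Eif3i and Eif3l gave -0.21 (SE 0.16), -0.21 (SE 0.18) and -0.18 (SE 0.14). A second Eif3i probe set gave -0.41. The other Eif3l probe sets gave -0.03 and 0.40. Those of Eif3e gave -0.09, 0.05 and 0.25, the last not above 4.39 in both groups. Eif3k and Eif3f gave -0.08 and -0.01. Eif3a, which encodes the largest subunit, read 10.91, 10.86 and 10.98 in WT and 10.89, 11.05 and 11.01 in Tet1 KO, which differ by 0.07 (SE 0.14). Leaving out 1 array gave 0.04 (Tet1 KO replicate 2) to 0.11 (Tet1 KO replicate 1). Its other 3 probe sets gave -0.32, -0.11 and -0.17. Eif3c read 11.18, 11.26 and 11.20 in WT and 11.21, 11.40 and 11.22 in Tet1 KO. The difference was 0.06 (SE 0.14), and its 4 probe sets were all positive, up to 0.25. Eif3h read 12.62 on Tet1 KO replicate 1, against 11.02 and 11.33 on replicates 2 and 3 and 11.42 to 11.54 in WT. Its difference of 0.17 (SE 0.40) was -0.31 without that array.

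Of the 3 measured cap-binding genes, Eif4e and Eif4e2 read lower and Eif4e3 higher at the probe set used. Eif4e, which binds the cap, read 9.72, 9.27 and 9.35 in WT and 9.32, 8.50 and 9.07 in Tet1 KO. Tet1 KO replicate 1 lay inside the WT range. The difference was -0.48 (SE 0.25) with an unadjusted limma p of 0.0971 and an adjusted p of 0.642, and -0.25 without Tet1 KO replicate 2. The other 3 Eif4e probe sets gave -0.03, 0.81 and 0.15, so the mean over its probe sets was 0.11. Eif4e2, the paralogue 4EHP that represses translation, gave -0.37 (SE 0.25), with 9.89 on Tet1 KO replicate 3 as its low reading. The other Eif4e2 probe sets gave -0.09, -0.03, 0.00 and 0.32. Eif4e3 read 8.06, 7.87 and 7.95 in WT and 8.28, 9.37 and 8.11 in Tet1 KO. The groups did not overlap, but the mean difference came mainly from Tet1 KO replicate 2. The difference was 0.63 (SE 0.33), or 1.55-fold, with an unadjusted limma p of 0.0993 and an adjusted p of 0.642. Without that array it was 0.24, and the other probe set gave -0.11.

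The helicase eIF4A and its partners had 5 measured members, 4 lower and 1 higher. Eif4a1, the main helicase, read 12.07, 12.10 and 12.01 in WT and 11.94, 11.92 and 11.89 in Tet1 KO. The groups lay apart with little spread in either, but the difference of -0.14 (SE 0.13) was close to the median of its level-matched genes, -0.11. Its other probe sets gave -0.09 and -0.15. Eif4a2 gave -0.14 (SE 0.18). Eif4b and Eif4h, which stimulate the helicase, gave -0.12 (SE 0.18) and -0.24 (SE 0.21). The other Eif4b probe sets gave -0.06 and -0.39. Those of Eif4h gave -0.46, -0.28, 0.04, 0.10 and -0.21. Eif4a3, the helicase of the exon junction complex, read 4.38, 4.10 and 4.33 in WT and 4.31, 4.96 and 4.37 in Tet1 KO. Its WT mean of 4.27 was under the bacterial control level of 4.39, and its high reading came from the array with the brightest bacterial control. Its difference of 0.28 (SE 0.21) was 0.07 without that array. Another probe set of Eif4a3 lists a second gene and was not used.

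Of the scaffold proteins that join eIF4E to eIF3, Eif4g2 and Eif4g3 were measured and Eif4g1 was not analysed here. Eif4g2, a scaffold that lacks the eIF4E-binding part, gave -0.06 (SE 0.20). Its 5 probe sets ran from -0.73 to 1.09. Eif4g3 read 8.58, 8.15 and 7.91 in WT and 8.14, 9.26 and 7.91 in Tet1 KO. Tet1 KO replicate 2 was the high array, and the difference of 0.22 (SE 0.38) became -0.19 without it.

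Of the proteins that bind eIF4E, Eif4ebp2 had the second smallest p of all members. It encodes a repressor that holds eIF4E away from its scaffold until the kinase mTOR phosphorylates it. It read 9.55, 9.48 and 9.54 in WT and 8.96, 9.10 and 9.25 in Tet1 KO. All 3 Tet1 KO arrays were lower, with Tet1 KO replicate 1 the lowest. The difference was -0.42 (SE 0.15), or 1.33-fold lower, with an unadjusted limma p of 0.0249 and an adjusted p of 0.642. Its next probe set gave -0.39, and the other 3 gave -0.16, 0.61 and -0.02, so that the mean over its probe sets was -0.07. Eif4ebp1, of the same family, read 9.14, 9.23 and 9.22 in WT and 8.74, 9.44 and 8.998 in Tet1 KO. Its difference was -0.14 (SE 0.20), with 1 Tet1 KO array above the WT range and the other two below it. Eif4enif1, which carries eIF4E into the nucleus, gave -0.02 (SE 0.17).

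The last members act late or on the free large subunit. Eif5a, the hypusine-carrying factor that helps the ribosome past difficult stretches, read 12.23, 12.31 and 12.32 in WT and 12.08, 12.32 and 12.33 in Tet1 KO, so the difference was -0.04 (SE 0.15). Its paralogue Eif5a2 gave -0.03 (SE 0.43), from values between 4.80 and 6.44. Eif6, which keeps the large subunit from joining too early, read 9.02, 9.03 and 8.84 in WT and 8.70, 8.55 and 8.87 in Tet1 KO. Tet1 KO replicate 3 lay just inside the WT range. The difference was -0.26 (SE 0.15) with an unadjusted limma p of 0.140, and the other probe set gave -0.35.

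The probe sets of one gene did not always move together. Of the 85 probe sets beside the brightest, 76 read above the bacterial control level in both groups. Among these, 45 had the same sign of difference as the brightest probe set of their gene and 31 the opposite sign. Over all 121 member probe sets above that level, 83 were lower in Tet1 KO. The share over all probe sets above that level was not counted. Among other genes in the members' middle range of level, 67.4% were lower at their brightest probe set. When all probe sets of a gene were averaged, 32 of the 46 members were lower (69.6%, against 43.6% of all genes). Eif1b and Eif2b5 were then the 2 at an unadjusted limma p under 0.05, at -0.67 and -0.92. Of all 18195 genes, 1447 reached that p in either direction.

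**Figure D4:**
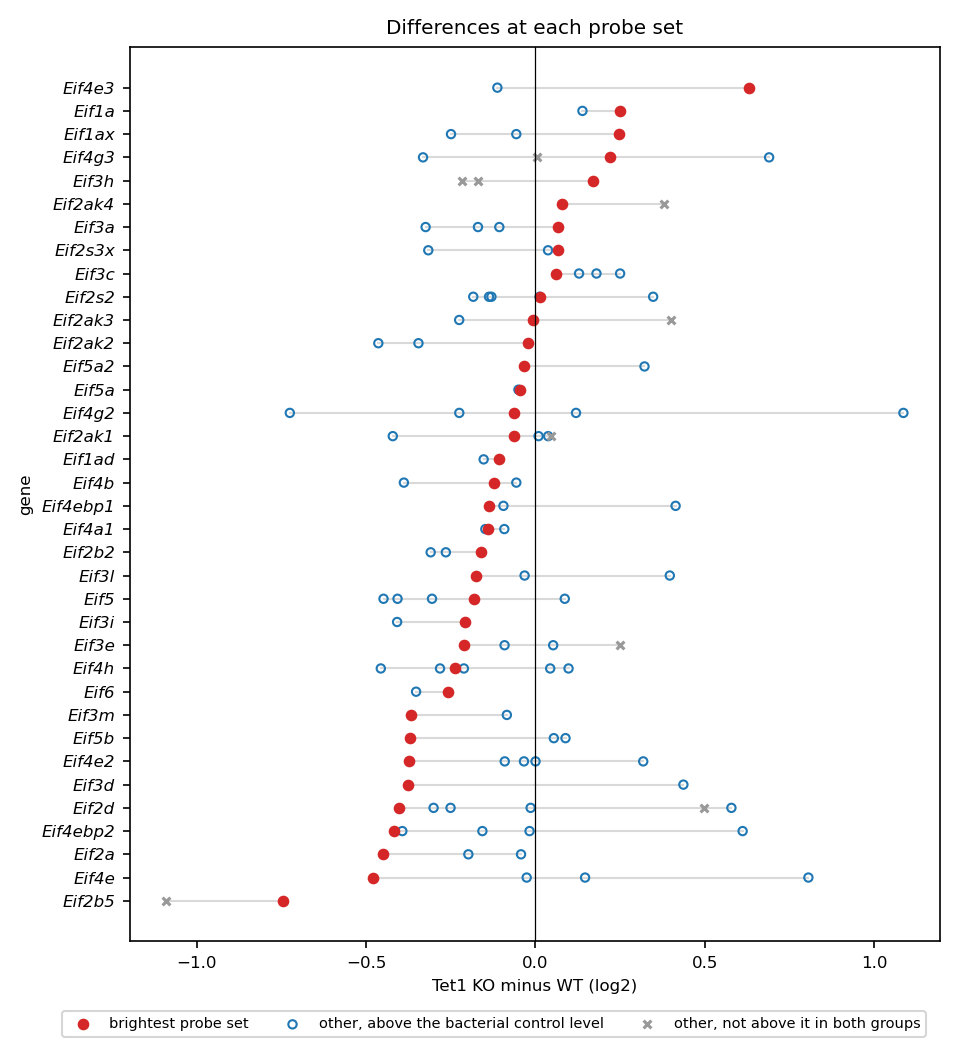
Difference between Tet1 KO and WT (log2) at every probe set of the 36 Eif genes with more than 1, with the brightest in red, others above the bacterial control level as open circles and dimmer ones as crosses. The probe sets of Eif4a1 and Eif2b2 all lie under 0 and those of Eif3c above it, while those of Eif4e, Eif4g2 and Eif4ebp2 lie on both sides.

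Genes that act with the initiation factors gave the same picture of small differences, with 0 at an adjusted limma p under 0.05 in each of the following lists. Of 19 initiation cofactors, such as poly(A)-binding proteins and accessory helicases, 15 were lower and 4 higher, and the median was -0.17. A total of 5 lay lower on every Tet1 KO array and 0 higher, where 6.89% of all genes lay lower, 12.4% of other genes in the middle range of Eif levels did, and 10.3% of all genes lay higher. Of the 19, 0 had an unadjusted p under 0.05. The 2 with the smallest p were Dhx29, a helicase that helps scanning through structured leaders, at -0.50 (SE 0.24), and Bccip, at -0.32 (SE 0.16). Of 22 elongation and release factors, 19 were lower and 3 higher, and the median was -0.14. Mtrf1l, a mitochondrial release factor, gave -0.58 (SE 0.19) at an unadjusted limma p of 0.0204, and Tsfm, a mitochondrial elongation factor, 0.40 (SE 0.14) at 0.0266. Of 19 cytosolic aminoacyl-tRNA synthetases, which load tRNAs with amino acids, 14 were lower and 5 higher, and the median was -0.14. Rars gave -0.53 (SE 0.17) at an unadjusted limma p of 0.0187 and Sars -0.31 (SE 0.14).

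Upstream of initiation, of 16 genes of mTORC1 and of the kinases that act on eIF4E or the small subunit, 13 were lower and 3 higher. The median was -0.14, with 0 at an unadjusted p under 0.05. Rps6kb2, an S6 kinase, gave -0.64 (SE 0.29), and Rraga, a GTPase that signals amino acids to mTORC1, -0.61 (SE 0.32). Of 24 genes of the integrated stress response, the programme that follows phosphorylation of eIF2, 14 were lower and 10 higher. The median was -0.07, with 0 at an unadjusted p under 0.05. Trib3, a target of the response, gave 0.52 (SE 0.23), and Gcn1, the activator of the kinase GCN2, gave 0.33 (SE 0.17). In this list 1 gene, Gcn1, lay higher on every Tet1 KO array and 1, Ddit4 at -0.42 (SE 0.23), lay lower. Of all genes 10.3% lay higher and 6.89% lower. The elongation and release factors held 2 such genes lower and 1 higher, the synthetases 2 lower and 0 higher, and the mTORC1 list 1 lower and 0 higher. The median was 0.05 over all genes and -0.12 over genes in the middle range of Eif levels, and no level-matched genes were drawn for these lists. The median levels of the mTORC1 list, 7.77, and of the elongation and release factors, 8.01, lay under that range.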

How the data were processed

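Each of the 6 samples was hybridized to 1 Affymetrix array from 125 ng of total RNA, per the labels' protocols. The deposited table held log2 intensities for 45101 probe sets, with the scale read from the values. Background correction, normalization and summarization are not given in the sources used here. Groups and replicate numbers came from sample titles. A platform annotation gave 34958 probe sets 1 symbol, 932 several and 9211 none.

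Genes were compared with limma 3.58.1 under R 4.3.3 (lmFit, eBayes, genotype as the only term, two-sided), with Benjamini-Hochberg adjustment over all 18195 genes at 0.05, on values as deposited, with no filter. The fit was tested on simulated data. Standard errors are moderated. The bacterial control level averages, over arrays, the highest of 27 control probe sets. The members, lists and tests were chosen with earlier results of these data known. Named genes were the 8 smallest p-values in each direction, members without overlap and 12 measured genes of a fixed list, which gave 27, and 2 genes per other list. The remaining members were added for completeness. Alternatives were other normalizations, probe set means, level filters, an intensity trend, array weights, a replicate block, Xist level as a covariate and leaving out arrays. Promoters and symbols are from RefSeq (GRCm38.p6). Figures used matplotlib 3.10.9.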

Additional observations from a re-analysis of the deposited data

How the results depend on the processing

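The count of members at an adjusted limma p under 0.05 was 0 under all 17 alternatives. Leaving out 1 array at a time gave 0 to 4 members lower at an unadjusted p under 0.05, 0 to 1 higher, 30 to 34 members lower in all, and a median difference of -0.15 to -0.080. With all arrays, 2 members were lower at an unadjusted limma p under 0.05, and 1311 of all 18195 genes reached it in either direction. Leaving out Tet1 KO replicate 1 gave 4 members lower and 2004 of all genes. Dropping Tet1 KO replicate 2 instead gave 4 members and 1508 genes. Dropping WT replicate 3 gave 1 member and 891 genes, and dropping WT replicate 2 gave 0 members and 621 genes. In these 4 settings the count of all genes rose or fell with that of the members. Eif1b had an unadjusted p under 0.05 in 16 of the 17 alternatives (not without WT replicate 2) and Eif4ebp2 in 9. The count of members lower at an unadjusted limma p under 0.05 was 1 with cyclic loess, the replicate block, and both low-Xist arrays left out. That last setting was chosen after seeing the data. Of all genes, 1044, 992 and 975 reached that p in either direction under these settings, in the same order. The count lower at that p was 3 with array weights, where Eif3b joined Eif1b and Eif4ebp2 and 1456 of all genes reached it. The count higher at that p was 1, Eif1a, with quantile normalization, where 1032 of all genes reached it, and with cyclic loess. The median of -0.13 moved to -0.066 with quantile normalization, -0.019 with cyclic loess, -0.072 with probe set means, -0.081 with array weights, -0.17 with both low-Xist arrays left out and -0.026 relative to level-matched genes.

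Of 458 values of the 27 named members under alternatives, 421 kept their direction and 37 reversed, and 13 members never reversed. Tet1 and the 2 named genes of each other list kept their direction under every alternative that tested them, and those lists kept 0 genes at an adjusted limma p under 0.05. Quantile normalization reversed Eif2ak1 (0.030), Eif2ak2 (0.060) and Eif2ak3 (0.055). Cyclic loess reversed Eif5a (0.037), Eif2ak1 (0.056), Eif2ak2 (0.11) and Eif2ak3 (0.024). Probe set means reversed Eif3d (0.030), Eif4e (0.11), Eif1ax (-0.020), Eif3a (-0.13), Eif3h (-0.072), Eif2s3x (-0.071), Eif4ebp1 (0.060) and Eif2ak3 (0.056). Array weights reversed Eif4g3 (-0.072), the Xist covariate Eif2ak3 (0.0054) and the omission of both low-Xist arrays Eif2ak3 (0.19). Without 1 array, values ran from -0.15 to 0.44 for Eif1ax, -0.30 to 0.10 for Eif2ak1, -0.091 to 0.089 for Eif2ak2, -0.26 to 0.18 for Eif2ak3, -0.27 to 0.36 for Eif2ak4, -0.053 to 0.22 for Eif2s3x, -0.0024 to 0.10 for Eif3c, -0.31 to 0.49 for Eif3h, -0.33 to 0.020 for Eif4ebp1, -0.19 to 0.48 for Eif4g3 and -0.091 to 0.038 for Eif5a. The causes were not tested. Same-numbered arrays did not deviate together (correlations 0.01, -0.01 and 0.03), so the numbers were not taken as pairs.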
